A study of Mus musculus with 6 samples.

Results

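The genes described here are 10 of the 23420 genes counted in mouse mesenchymal stromal cells (MSCs), chosen by symbol as effectors and direct targets of the Hippo pathway. They are the coactivators Yap1 and Wwtr1 (which encodes TAZ), the DNA-binding factors Tead1 and Tead4, the kinase Lats2, the targets Ctgf, Cyr61 and Ankrd1, the angiomotin relative Amotl2, and Ajuba, a LIM-domain adaptor. All 10 had reads in every library and passed the filter on low counts.

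Bulk RNA-seq was made from MSCs grown out of femurs of female C57BL/6 mice aged 6 to 8 weeks and transduced at passage 5 with an AP2 retrovirus that carries eGFP as a marker. Ctl MSC received the empty AP2 backbone, and MSC-TPr received the same backbone coding for β1i, β2i and β5t, the catalytic subunits of the thymoproteasome, separated by a viral self-cleaving peptide. Each group had 3 libraries of polyadenylated RNA, with 16158756 to 22158887 reads counted on genes. The MSCs were grown out in AMEM with 10% serum, and the medium of the transduced cells at RNA extraction is not stated. The labels do not say whether the libraries of a group came from separate animals or cultures, so the p-values measure the spread between these libraries, which may be technical.

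Some libraries stood apart from their labels. The mean log2 CPM (CPM being counts scaled to library size with edgeR's TMM factors) of 29 cell division genes was 6.71 in Ctl MSC 1, 6.64 in MSC-TPr 2 and 6.61 in MSC-TPr 3, against 3.84 to 3.85 in Ctl MSC 2, Ctl MSC 3 and MSC-TPr 1. None of the transduced genes Psmb9, Psmb10 and Psmb11 was higher in every MSC-TPr library than in every Ctl MSC library, and Psmb11 was at 0.0464 to 0.355 CPM, where 3 reads are 0.139 to 0.181 CPM. Psmb10 was highest in Ctl MSC 1 (27.8 CPM), followed by MSC-TPr 2 and 3 (17.3 and 15.2 CPM), against 8.38 to 8.97 CPM in the other libraries, and Psmb9 had the same order. Birc3, Pgr, Pdgfd and Tgm2, described below, differed between the labels without overlap. They were named for their changes between these same labels, so they are no check of the labels. Of all genes tested, 22.6% lay apart by label, while 44.7% split Ctl MSC 1, MSC-TPr 2 and MSC-TPr 3 from the other libraries. Whether the libraries numbered 1 carry the right labels was not tested, and any error there would change what the values over 6 libraries mean. Directions below are therefore between library labels. Each member is given over all 6 libraries and again over libraries 2 and 3 of each group, and other genes over 6 libraries unless stated. In those 4 libraries the label and the level of cell division genes cannot be told apart. Of 10 MSC markers, 9 reached at least 1 CPM in every library, while Thy1 (CD90) did not reach 1 CPM in any. The markers' summed level was 1119 to 8879 CPM, of which Col1a1 gave 354 to 6916 CPM. Markers of blood cells, endothelium and epithelium summed to at most 17.5, 3.32 and 1.23 CPM, and Ptprc, Pecam1 and Epcam were under 1 CPM in every library. The highest of these markers were Cd14, at 3.27 to 13.2 CPM, and Cd68, from 0.789 CPM in MSC-TPr 3 to 14.2 CPM in MSC-TPr 1. Kdr reached 2.99 CPM and Krt18 1.01 CPM.

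In the Hippo pathway, the MST kinases activate LATS kinases, which phosphorylate YAP and TAZ and so keep them in the cytoplasm or mark them for degradation. When LATS activity is low, YAP and TAZ enter the nucleus, bind TEAD factors and switch on genes such as Ctgf, Cyr61 and Ankrd1. In stromal cells this output follows cell spreading, matrix stiffness, serum and cell density, and much of it is set on the protein rather than the mRNA. The mRNA counts described here do not measure the phosphorylation or the location of YAP and TAZ.

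TEAD factors bind the letters GGAATG, written CATTCC on the other strand. These letters, on either strand, were found within the 250 bases before the start of 6 of the 7 members that have an entry in the RefSeq promoter table (85.7%), against 14.4% of the 27025 genes in that table and 5 of 17 further YAP-TAZ targets (29.4%). The 6 were Yap1, Wwtr1, Cyr61, Ankrd1, Amotl2 and Ajuba. Lats2 held no such letters in this window, and Ctgf, Tead1 and Tead4 had no entry. The AP-1 letters TGANTCA were in 0 of the 7 windows (7.8% of all genes) and the SRF CArG box in 0 (1.6%). A match of letters is a description of the sequence and not evidence of binding. The members were chosen as known effectors and direct targets of the pathway, so their share with TEAD letters is no independent evidence about them.

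Windows of 4 members are printed 5′ to 3′ on the strand of the gene, with the TEAD letters in capitals. They form 2 of the closest pairs among the members by course over the libraries, Ankrd1 with Cyr61 and Amotl2 with Yap1. Yap1 with Lats2 was a closer pair than Ankrd1 with Cyr61, but Lats2 held no TEAD letters and is not printed. The printed windows therefore do not show that members with like courses share these letters. As described further on, many genes outside the members were closer to Yap1 than Amotl2 was. The build is GRCm38.p6, and the windows are chr19:36119845-36120094 (minus strand) for Ankrd1, chr3:145649986-145650235 (minus) for Cyr61, chr9:102717554-102717803 (plus) for Amotl2 and chr9:8004597-8004846 (minus) for Yap1.
Ankrd1: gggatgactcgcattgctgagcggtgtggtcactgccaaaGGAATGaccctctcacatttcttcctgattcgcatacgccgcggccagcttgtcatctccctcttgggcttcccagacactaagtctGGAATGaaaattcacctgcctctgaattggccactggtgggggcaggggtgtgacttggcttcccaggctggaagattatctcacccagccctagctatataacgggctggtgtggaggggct
Cyr61: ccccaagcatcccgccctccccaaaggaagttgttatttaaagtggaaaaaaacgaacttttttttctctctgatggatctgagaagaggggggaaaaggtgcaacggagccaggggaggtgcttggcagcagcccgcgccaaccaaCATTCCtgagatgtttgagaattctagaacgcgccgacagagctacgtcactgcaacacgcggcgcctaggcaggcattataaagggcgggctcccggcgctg
Amotl2: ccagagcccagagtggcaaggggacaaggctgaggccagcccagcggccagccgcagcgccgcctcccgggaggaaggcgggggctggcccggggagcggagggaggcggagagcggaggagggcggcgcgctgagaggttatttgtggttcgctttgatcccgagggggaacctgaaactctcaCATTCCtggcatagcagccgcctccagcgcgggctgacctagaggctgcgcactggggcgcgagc
Yap1: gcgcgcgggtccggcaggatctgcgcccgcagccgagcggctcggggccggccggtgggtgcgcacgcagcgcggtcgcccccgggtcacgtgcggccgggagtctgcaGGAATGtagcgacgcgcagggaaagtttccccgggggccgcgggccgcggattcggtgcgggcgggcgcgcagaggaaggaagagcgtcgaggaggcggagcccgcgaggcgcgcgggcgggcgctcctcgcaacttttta
Ankrd1 held the letters at 210 to 205 and again at 123 to 118 bases before its start. Cyr61 held them at 103 to 98 and Amotl2 at 65 to 60 bases before the start, both on the opposite strand. In Yap1 they stood at 141 to 136, on the strand of the gene. All these positions count from the RefSeq start. For Ankrd1 and Amotl2 that start lies inside the gene as placed below, so their windows fall within the gene coordinates given there.

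**Figure D1:**
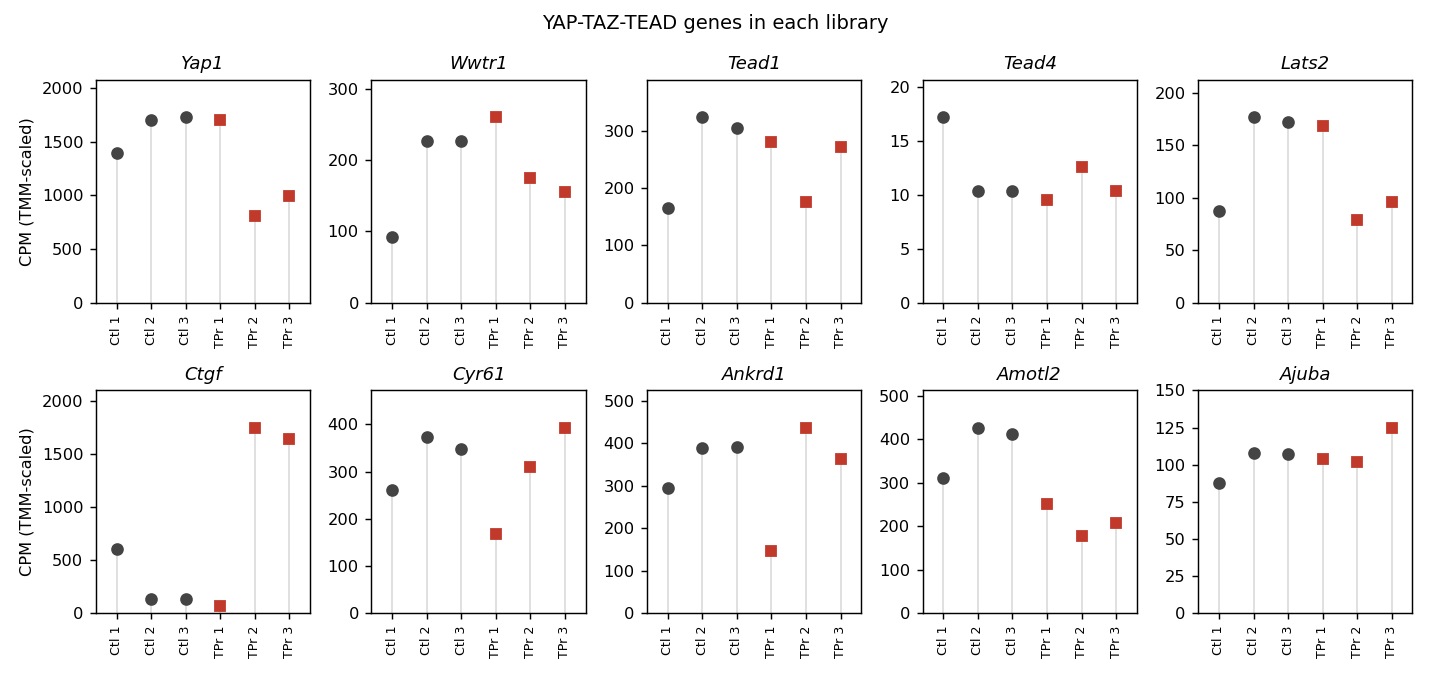
Level of each of the 10 genes in CPM (vertical axes, each starting at 0) in the 3 Ctl MSC libraries (grey circles) and the 3 MSC-TPr libraries (red squares). The groups separate for Amotl2 alone, and Ctgf ranges from 71.6 to 1750.1 CPM.

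Yap1, which encodes the coactivator YAP, lies on chromosome 9 of mm10 from 7931999 to 8004596 on the minus strand. Its levels were 1397, 1698 and 1731 CPM in the Ctl libraries 1, 2 and 3, and 1704, 804 and 989 CPM in the TPr libraries 1, 2 and 3, the order used throughout. The lowest levels were in MSC-TPr 2 and 3, but MSC-TPr 1 stood among the Ctl MSC libraries, so the groups overlapped. The log2 fold change (MSC-TPr over Ctl MSC) was −0.47 (SE 0.306, adjusted p = 0.526 in edgeR's quasi-likelihood test). Over libraries 2 and 3 of each group the mean was 1715 ± 23.5 CPM in the Ctl libraries and 896 ± 131 CPM in the TPr libraries (SD, n = 2 each), and Yap1 fell by 0.93 on the log2 scale (SE 0.149, adjusted p = 0.0045 in edgeR's test). A gene is called here when its adjusted p is under 0.05 and its log2 fold change is at least 0.5 in size. By that rule 0.426% of the 11974 genes tested were called over 6 libraries, and 40.0% of 12122 over 4 libraries, 20.6% higher and 19.4% lower in MSC-TPr. Exons of Yap1 overlap a gene model on the opposite strand, Gm20416, as those of Ctgf overlap Gm15270, and whether the counting used the strand is not given. In bulk RNA a lower level per cell and fewer cells with the transcript cannot be told apart.

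Wwtr1, the gene of the coactivator TAZ, lies on chromosome 3 from 57455649 to 57575910 (minus strand). Its levels were 91.8, 227 and 227 CPM in the Ctl libraries and 261, 175 and 156 CPM in the TPr libraries. The extremes were the libraries numbered 1, lowest in Ctl MSC and highest in MSC-TPr. A log2 fold change of 0.12 was found over 6 libraries (SE 0.386, adjusted p = 0.911, edgeR) and −0.45 over 4 (SE 0.118, adjusted p = 0.0242), which missed the size of 0.5. Compared per length, as CPM per kb of exon, Yap1 was the more abundant of the pair in every library and made up 70.3% to 88.7% of their sum. Its share was 79.4% to 88.7% in the Ctl MSC libraries and 70.3% to 77.1% in the MSC-TPr libraries, without overlap. This share was looked at after the levels were known and was not tested. Of all single genes tested, 22.6% lay apart by label, and how often such shares do was not counted. The sum was 170.1, 231 and 235 in Ctl MSC and 239, 123 and 139 in MSC-TPr, so MSC-TPr 2 and 3 held the lowest levels of the pair and MSC-TPr 1 the highest. On this scale Yap1 stood at rank 251 of 11875 genes and Wwtr1 at rank 1226.

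Tead1 and Tead4 encode DNA-binding partners of YAP and TAZ. Tead1 (chromosome 7, 112679318 to 112906807, plus strand) reached 165, 324 and 304 CPM in the Ctl libraries and 281, 175 and 272 CPM in the TPr libraries. Over 6 libraries the log2 fold change was −0.13 (SE 0.312, adjusted p = 0.884) and −0.49 over 4 (SE 0.215, adjusted p = 0.109). The groups overlapped, and the lowest levels were in Ctl MSC 1 and MSC-TPr 2. Tead4 (chromosome 6, 128224288 to 128300823, minus strand) reached 17.2, 10.3 and 10.3 CPM in the Ctl libraries and 9.47, 12.6 and 10.3 CPM in the TPr libraries. With 6 libraries the log2 fold change was −0.22 (SE 0.278, adjusted p = 0.76), and it was 0.16 (SE 0.169, adjusted p = 0.475) with 4, so its sign depended on the libraries used.

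The TEAD genes together gave 21.6, 38.3 and 36.8 CPM per kb of exon in Ctl MSC and 41.8, 23.2 and 30.9 in MSC-TPr. Tead1 was the largest share in every library (49.5% to 64.7%), followed by Tead2 in all libraries but Ctl MSC 1 (16.7% to 41.8%). Tead4 held 6.3% to 22.1% and Tead3 2.45% to 4.82%. Tead2, a paralog outside the 10 members, reached 17.3, 50.1 and 50.1 CPM in the Ctl libraries and 83.5, 28.5 and 32.6 CPM in the TPr libraries. Over 6 libraries the log2 fold change was 0.30 (SE 0.555, adjusted p = 0.842), and over 4 it fell by 0.71 (SE 0.125, adjusted p = 0.0062, edgeR). Tead3 stayed between 5.74 and 8.35 CPM, with a log2 fold change of −0.05 in both fits (adjusted p = 0.936 and 0.867).

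**Figure D2:**
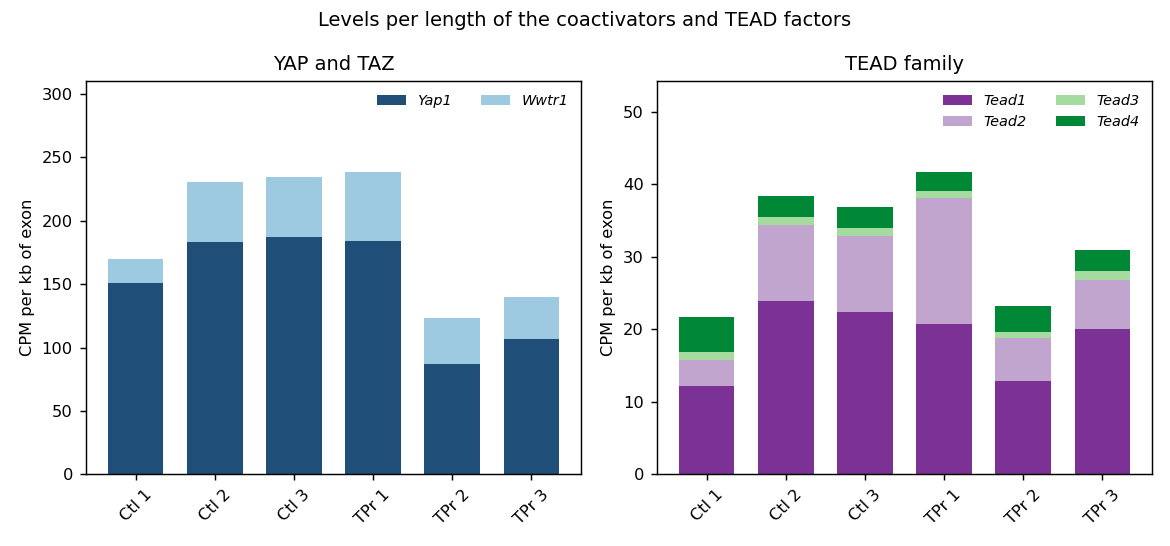
CPM per kb of exon in each library, stacked for Yap1 and Wwtr1 (left) and for the TEAD genes (right). Yap1 is the larger part of the left bars in all libraries, and both sums are highest in MSC-TPr 1 (239 and 41.8).

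LATS2 is a kinase that phosphorylates YAP and TAZ, and its gene is itself a YAP target. Lats2 (chromosome 14, 57689662 to 57758388, minus strand) reached 87.7, 177 and 172 CPM in the Ctl libraries and 168, 78.5 and 96.1 CPM in the TPr libraries. It was low in Ctl MSC 1, MSC-TPr 2 and MSC-TPr 3, which are the libraries with high levels of cell division genes. The log2 fold change was −0.35 over 6 libraries (SE 0.379, adjusted p = 0.716), and over 4 it fell by 1.0 (SE 0.137, adjusted p = 0.0028, edgeR). Exons of Lats2 overlap a gene model on the same strand, Gm49361, so its count is uncertain where reads could not be assigned. Its paralog Lats1 reached 91.6, 177 and 178 CPM in the Ctl libraries and 219, 114 and 172 CPM in the TPr libraries, with log2 fold changes of 0.18 (SE 0.34, adjusted p = 0.848) and −0.31 over 4 libraries (SE 0.202, adjusted p = 0.249). Per kb of exon, Lats1 over Lats2 was 0.958 to 0.997 in the Ctl MSC libraries and 1.24 to 1.71 in the MSC-TPr libraries, with no overlap. Yap1 over Wwtr1, which restates the share of Yap1 given above, did not overlap either, at 3.86 to 7.86 in Ctl MSC and 2.37 to 3.36 in MSC-TPr. Ctgf over Cyr61, Ctgf over Ankrd1 and Tead1 over Tead2 overlapped. These ratios were looked at after the levels were known and were not tested, and how often ratios of other genes lie apart was not counted.

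Ctgf (now named Ccn2), which encodes a secreted matricellular protein of fibrous tissue, varied most among the 10 genes. It lies on chromosome 10 from 24595442 to 24598683 (plus strand). Levels were 604, 137 and 139 CPM in the Ctl libraries and 71.6, 1750.1 and 1647 CPM in the TPr libraries, from 1293 to 35512 reads. MSC-TPr 1 had the lowest level of all libraries and MSC-TPr 2 the highest, 24.4-fold above it. Ctl MSC 1 stood 4.39-fold above the mean of the other Ctl MSC libraries. The log2 fold change over 6 libraries was 1.98 with an SE of 1.14 (adjusted p = 0.469, edgeR), and the MSC-TPr libraries differed more among themselves than the groups did. Over 4 libraries the means were 138 ± 1.49 and 1699 ± 72.7 CPM (SD, n = 2 libraries each), and Ctgf rose by 3.63 on the log2 scale (SE 0.134, adjusted p = 8.8e-05). Between the libraries numbered 1 the direction was the opposite, with a log2 ratio of −3.08 and no replicate check. Ctgf was higher in every library with high cell division genes than in any of the others. With the mean of those genes as a covariate over 6 libraries, its log2 fold change was 0.36 (adjusted p = 0.695). The part of cell division in the Ctgf levels was not tested beyond this fit.

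Cyr61 (now Ccn1) encodes another secreted matricellular protein, and Ankrd1 the cardiac ankyrin repeat protein. Cyr61 (chromosome 3, 145646976 to 145649981, minus strand) reached 261, 374 and 348 CPM in the Ctl libraries and 168, 309 and 393 CPM in the TPr libraries. Ankrd1 (chromosome 19, 36111961 to 36120099, minus strand) reached 295, 390 and 391 CPM in the Ctl libraries and 146, 437 and 362 CPM in the TPr libraries. Both were lowest in MSC-TPr 1 and next lowest in Ctl MSC 1, and the other libraries overlapped. The log2 fold change of Cyr61 was −0.18 over 6 libraries (SE 0.326, adjusted p = 0.84) and −0.04 over 4 (SE 0.152, adjusted p = 0.851). For Ankrd1 it was −0.19 (SE 0.394, adjusted p = 0.859) and 0.03 (SE 0.136, adjusted p = 0.854). Over the 4 libraries in which Ctgf rose, the log2 fold changes of both genes lay within 1 SE of 0. Per kb of exon, Ctgf over Cyr61 was 1.63, 0.258 and 0.281 in Ctl MSC and 0.30, 4.0 and 2.96 in MSC-TPr.

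Amotl2 encodes an angiomotin family scaffold that binds YAP at junctions and is also a YAP target. It was the 1 member whose groups did not overlap. Amotl2 (chromosome 9, 102716672 to 102733418, plus strand) reached 312, 427 and 412 CPM in the Ctl libraries and 250.2, 177 and 207 CPM in the TPr libraries. Each MSC-TPr library was below each Ctl MSC library, as for 12.1% of all genes tested, while 10.6% lay apart in the higher direction. The means were 383 ± 62.6 and 211 ± 36.7 CPM (SD, n = 3 libraries each). The log2 fold change over 6 libraries was −0.86 (SE 0.204, unadjusted p = 0.0046, adjusted p = 0.154 in edgeR's model across all genes), short of the threshold. Over 4 libraries it fell by 1.12 (SE 0.13, adjusted p = 0.0016). DESeq2 called it over 6 libraries at −0.85 (adjusted p = 0.0193), as did edgeR with the cell division covariate at −0.73 (adjusted p = 0.0111), a fit that called 12.0% of all genes. Amotl1, its paralog, reached 163, 447 and 436 CPM in the Ctl libraries and 269.9, 167 and 199 CPM in the TPr libraries, with overlapping groups and a log2 fold change of −0.72 (SE 0.407, adjusted p = 0.464).

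Ajuba encodes an adaptor that restrains LATS kinases. It lies on chromosome 14 from 54567472 to 54577558 (minus strand) and reached 87.7, 108 and 107 CPM in the Ctl libraries and 104, 102 and 125 CPM in the TPr libraries. Over 6 libraries the log2 fold change stood at 0.13 (SE 0.161, adjusted p = 0.759), and over 4 at 0.08 (SE 0.135, adjusted p = 0.644). Its highest library was 1.43-fold above its lowest, the narrowest range of the 10 genes, and the groups overlapped.

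Over 6 libraries, 0 of the 10 genes were called by edgeR, 1 had an unadjusted p under 0.05 (Amotl2), and DESeq2 called 1 (Amotl2). Of all genes, 15.0% had an unadjusted p under 0.05, and DESeq2 called 5.28% of those to which it gave an adjusted p. Over 4 libraries 4 of 10 were called, which was the share of all genes (40.0%): Ctgf rose, and Yap1, Lats2 and Amotl2 fell. Of the 10 genes, 2 (Ctgf and Tead4) were higher and 4 (Yap1, Wwtr1, Tead1 and Lats2) lower in Ctl MSC 1, MSC-TPr 2 and MSC-TPr 3 than in all other libraries, an order found in 44.7% of all genes. For Tead4 this order rested on a margin smaller than the rounding of the values given above. These libraries are not a group of the study as labelled. They would be the MSC-TPr group if the labels of the libraries numbered 1 were exchanged, which was not tested.

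**Figure D3:**
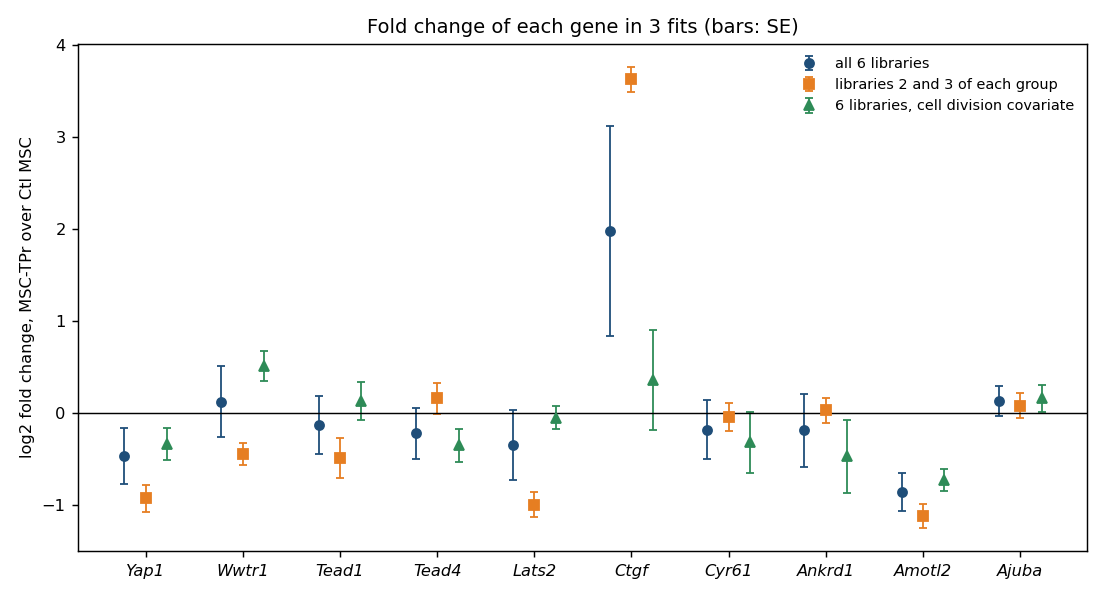
Log2 fold change of each gene (vertical axis, bars are SE) over all 6 libraries, over libraries 2 and 3 of each group, and over 6 libraries with the cell division covariate. Amotl2 lies below 0 in all 3 fits, and Ctgf moves from 3.63 to 0.36 between fits.

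The likeness of courses over the 6 libraries was measured as the mean absolute difference between log2 CPM values centred on each gene's own mean, among 9109 genes with a mean log2 CPM of at least 3. Between members the closest pairs were Yap1 and Amotl2 (0.182), Yap1 and Lats2 (0.184), and Cyr61 and Ankrd1 (0.185). Ctgf differed from every other member by 1.53 to 2.21. The genes most like Yap1 were Smarcal1 (0.0311), Scarb2 (0.0579) and Tpmt (0.0657). Those most like Ctgf were Col5a3 (0.315), Angpt1 (0.34) and Mybl2 (0.344). Loxl4, Zfp9 and Gfpt1 were closest to Cyr61 (0.0719 to 0.0785), and Slc9a9, Ak5 and Pkp2 to Ankrd1 (0.0626 to 0.0878). Among all genes, Ankrd1 was number 63 in likeness to Cyr61, whereas Ctgf was number 9073. In likeness to Yap1, Amotl2 was number 317 and Lats2 number 332. These are descriptions over libraries that share large differences.

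The other genes of the Hippo pathway were taken from a list of 32 regulators, of which 29 were tested (Dchs1, Vgll1 and Vgll2 were too low). Over 6 libraries 0 were called by edgeR and 1 by DESeq2, and 5 had an unadjusted p under 0.05 (15.0% of all genes). In 6 the MSC-TPr libraries were all higher and in 1 all lower, in sum 24.1%, against 22.6% of all genes. By direction, 10.6% of all genes lay apart higher and 12.1% lower, so the regulators that lay apart were more often higher. This difference in direction was not tested. The median log2 fold change was 0.09 (0.01 over all genes). Over 4 libraries 4 rose (among them Wwc1, Wwc2 and Rassf1) and 7 fell (Nf2, Amotl1, Ptpn14, Wtip, Taok3, Tead2 and Vgll4), 37.9% of those tested against 40.0% of all genes.

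Among the regulators, the largest positive log2 fold changes over 6 libraries were those of Fat1, a giant cadherin (0.86, SE 0.418, adjusted p = 0.393), Wwc1, which encodes the scaffold KIBRA (0.75, SE 0.252, adjusted p = 0.249), Rassf1 (0.73, SE 0.213, adjusted p = 0.205) and Wwc2 (0.62, SE 0.156, adjusted p = 0.172). Wwc2 reached 105, 125 and 128 CPM in the Ctl libraries and 186, 163 and 199.9 CPM in the TPr libraries, without overlap. Wwc1, at 23.2, 42.7 and 41.6 against 61.2, 61.2 and 58.2 CPM, did not overlap either. Fat1 rested on MSC-TPr 3, at 754 CPM against 219.7 to 277 CPM in the other libraries. On the negative side were Amotl1, given above, Vgll4 (−0.72, adjusted p = 0.425), Vgll3 (−0.46, adjusted p = 0.368) and Taok3 (−0.46, adjusted p = 0.535). Over 4 libraries Vgll3 was at −0.19 (adjusted p = 0.306) and Fat1 at 1.15 (adjusted p = 0.072). Vgll4 encodes a cofactor that competes with YAP for TEADs, and reached 16.5, 24.5 and 25.6 CPM in the Ctl libraries and 20.7, 8.58 and 11.3 CPM in the TPr libraries. The MST kinase genes had log2 fold changes of 0.17 for Stk3 (SE 0.192, adjusted p = 0.735) and 0.24 for Stk4 (SE 0.234, adjusted p = 0.677).

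A second list held 29 further YAP-TAZ targets, of which 28 were tested (Igfbp3 was too low). Amotl1 and Ptpn14 are also among the regulators, so they count in both lists, each time as falling over 4 libraries. Over 6 libraries 1 rose and 0 fell, 3 had an unadjusted p under 0.05 (15.0% of all genes), and the median log2 fold change was 0.13. The groups did not overlap in 3 genes higher and 2 lower in MSC-TPr, in sum 17.9%, against 22.6% of all genes. Over 4 libraries 14 rose and 5 fell, 67.9% of those tested against 40.0% of all genes, and the median was 0.71 (−0.00 over all genes). Among the 14 were Myof, Axl, Fjx1, Ccdc80, Dock5, Tgfb2, Birc5, Ccnd1, Ptgs2, Thbs1, Tagln, Anxa1 and Tgm2. Beside this, 15 of the 28 were higher in Ctl MSC 1, MSC-TPr 2 and MSC-TPr 3 than in all other libraries, an order in that direction found in 23.0% of all genes, and Birc5 is itself one of the cell division genes. With the cell division covariate 1 rose (Tgm2) and 5 fell of the 28, against 12.0% of all genes called in that fit. Birc5 was among the 5, and as part of the covariate itself it is no independent result there.

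Tgm2, which encodes the crosslinking enzyme transglutaminase 2, was the target called over 6 libraries. It reached 17.3, 12.7 and 14.6 CPM in the Ctl libraries and 37.5, 40.0 and 38.9 CPM in the TPr libraries, so the groups lay far apart. Tgm2 rose by 1.38 on the log2 scale (SE 0.181, adjusted p = 0.0453, edgeR) over 6 libraries and by 1.53 (SE 0.133, adjusted p = 0.0006) over 4. The call was lost when Ctl MSC 2, Ctl MSC 3 or any MSC-TPr library was left out, with log2 fold changes of 1.28 to 1.51 over all such fits, and also with at least 10 counts in every library. Nt5e, the gene of the ecto-enzyme CD73 and a marker of MSCs, reached 11.4, 20.2 and 17.4 CPM in the Ctl libraries and 2.66, 4.2 and 5.24 CPM in the TPr libraries. Over 6 libraries the log2 fold change was −2.02 (SE 0.35, adjusted p = 0.079), and it fell by 1.99 (SE 0.188, adjusted p = 0.00081) over 4.

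Among the other targets with the largest log2 fold changes over 6 libraries were Fjx1 (1.09, SE 0.407, adjusted p = 0.284), Tagln (0.82, SE 0.823, adjusted p = 0.694), Foxf2 (−0.76, SE 0.339, adjusted p = 0.354) and Ptpn14 (−0.45, SE 0.281, adjusted p = 0.502). Over 4 libraries Fjx1 rose by 0.89 and Tagln by 1.71, Ptpn14 fell by 0.78, and Foxf2 was at −0.28 (adjusted p = 0.0226, 0.00082, 0.0311 and 0.273). Thbs1, the thrombospondin 1 gene, was chosen after its values were seen. It reached 1899.8, 351 and 319 CPM in the Ctl libraries and 90.2, 675 and 1762 CPM in the TPr libraries, and its log2 fold change over 6 libraries was −0.02 (SE 1.1, adjusted p = 0.994), and −1.15 to 1.33 when 1 library was left out. Over 4 libraries Thbs1 rose by 1.87 on the log2 scale (SE 0.423, adjusted p = 0.0151).

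**Figure D4:**
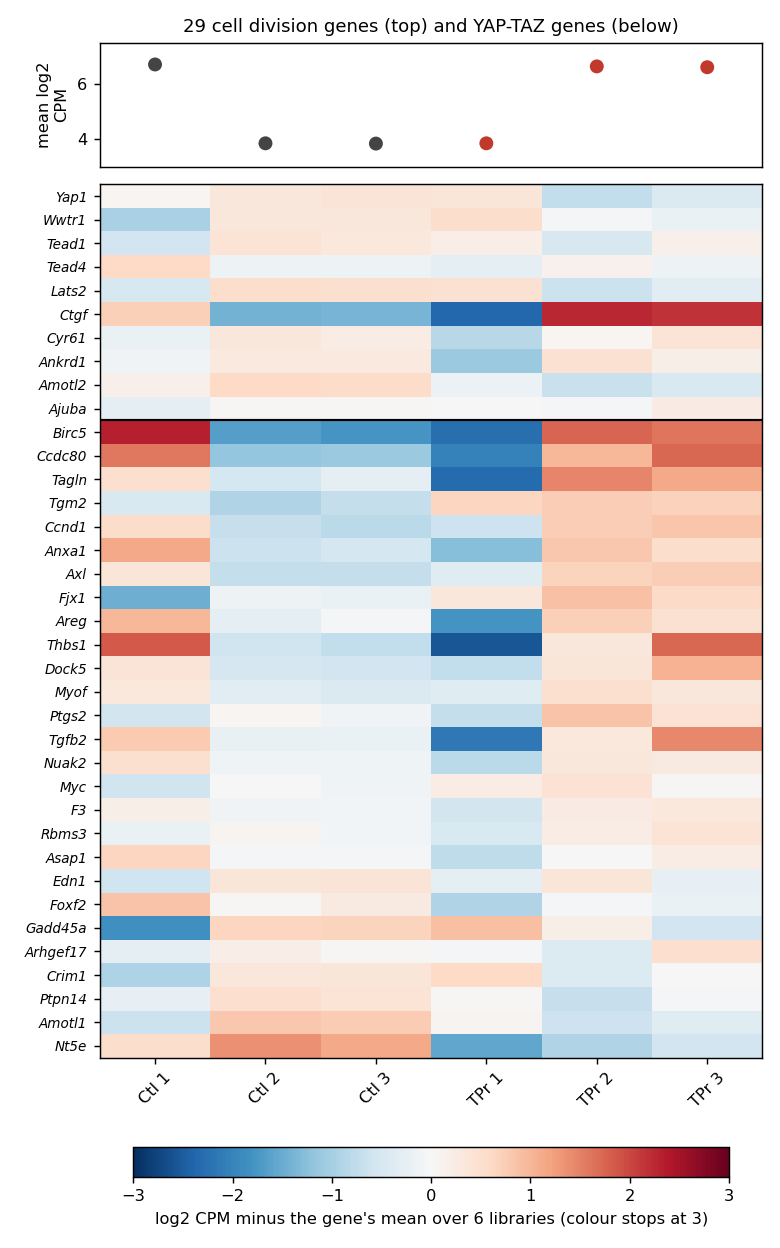
Mean log2 CPM of 29 cell division genes (top) and, for the 10 members (above the line) and further targets, log2 CPM minus the gene's mean over the 6 libraries (red higher, blue lower). Ctgf, Ccdc80 and Birc5 are red in Ctl MSC 1 and MSC-TPr 2 and 3, while Tgm2 is red in the 3 MSC-TPr libraries alone.

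Yap1 lies beside Birc2 and Birc3, which encode inhibitors of apoptosis and whose low levels in MSC-TPr were known when the neighbours were chosen. The 20 tested genes nearest to Yap1, 10 on each side, were therefore compared with it. Over 6 libraries 1 rose and 1 fell (0.426% of all genes were called), and 7 had an unadjusted p under 0.05 (15.0% of all genes). The groups did not overlap in 12 of the 20 (60.0%, against 22.6% of all genes), 1 higher and 11 lower in MSC-TPr, and the median log2 fold change was −0.42. These genes spread from −2623.2 kb (Casp4) to 5895.7 kb (Fam76b) from Yap1. Of those lower, Jrkl, Ccdc82, Mtmr2, Cep57 and Fam76b lay at 5310.6 kb or more, with log2 fold changes of −0.66 to −0.23 and no call over 6 libraries. Over 4 libraries 1 rose and 7 fell, 40.0% of the 20 and equal to the share of all genes. Since Birc2 and Birc3 led to this choice, the count is no independent evidence.

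Birc3, at −83.3 kb from Yap1 (distance between the genes' lower coordinates, negative towards the start of the chromosome), reached 78.4, 54.4 and 56.7 CPM in the Ctl libraries and 2.44, 3.25 and 3.85 CPM in the TPr libraries. It fell by 4.31 on the log2 scale (SE 0.273, adjusted p = 0.0081, edgeR), in every library labelled MSC-TPr. Birc2, at −113.8 kb, reached 159.6, 217 and 185 CPM against 134, 81.7 and 86.8 CPM (log2 fold change −0.89, SE 0.239, adjusted p = 0.183). Pgr, the progesterone receptor gene, at 967.8 kb, reached 89.3, 201 and 191 CPM against 8.91, 17.3 and 23.5 CPM (−3.27, SE 0.472, adjusted p = 0.0595). Pdgfd, a growth factor gene at −1763.4 kb, rose by 4.28 (SE 0.521, adjusted p = 0.035), with 9.55, 3.79 and 4.25 CPM against 63.2, 155 and 123 CPM.

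The remaining neighbours named by size of change were Trpc6 (0.29, adjusted p = 0.837), Mmp3 (−1.38, adjusted p = 0.452) and Casp4 (−1.22, adjusted p = 0.147). Mmp3 was at 21.8 CPM in Ctl MSC 1 against 2.9 to 4.76 CPM in the other libraries, and its log2 fold change was −0.17 over 4 libraries and −1.79 to 0.04 when 1 library was left out. Tmem123 and Dcun1d5 were picked after their values were seen, for their levels. At 490 and 270 CPM per kb of exon on average, they stood at ranks 72 and 142 of 11875, ahead of Yap1 at rank 251. Their log2 fold changes were −0.34 (SE 0.164, adjusted p = 0.392) and −0.12 (SE 0.255, adjusted p = 0.861). Yap1 lies between Birc3 and 9230110C19Rik, whose groups overlapped as those of Yap1 did (−0.30 over 6 libraries, adjusted p = 0.73) and which fell by 0.86 over 4 (adjusted p = 0.0111). The differences between neighbouring genes were not tested. Over 4 libraries Birc3 fell by 3.95, Birc2 by 1.25 and Pgr by 3.25, and Pdgfd rose by 5.12 (adjusted p = 9.5e-05, 0.0011, 0.00014 and 8.8e-05, edgeR). The calls of Birc3 and Pdgfd were both lost when Ctl MSC 2, Ctl MSC 3, MSC-TPr 2 or MSC-TPr 3 was left out.

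**Figure D5:**
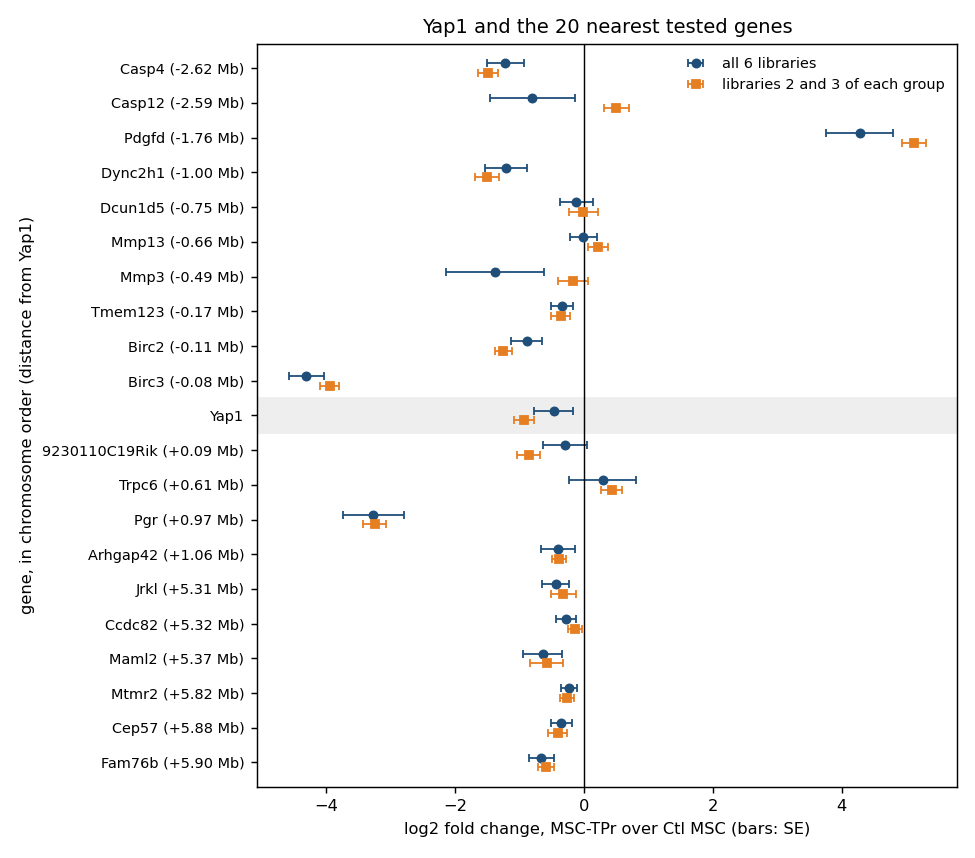
Log2 fold change (horizontal axis, bars are SE) of Yap1 (grey band) and the 20 nearest tested genes in chromosome order, with their distance from Yap1 in Mb, over all 6 libraries and over libraries 2 and 3 of each group. Birc3 and Pgr lie far below 0 and Pdgfd far above in both fits, while Yap1 is at −0.47 and −0.93.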

How the data were processed

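The submitters' processing notes name CASAVA 1.8.2, Trimmomatic 0.35 and TopHat2 2.1.0, and the authors aligned the reads to mm10 and counted them per gene by Htseq-count. These raw counts were deposited without normalization. The strand setting of the counting is not given in the sources used here. Reads on genes were 79.2% to 86.2% of those listed per library, and the unassigned rest was left out of library sizes.

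Counts of 6 libraries, grouped by label, were tested with edgeR 4.0.16 in R 4.3.3 (TMM, filterByExpr, quasi-likelihood test, group as the only term, Benjamini-Hochberg adjustment over all genes tested). The SE is the size of the log2 fold change divided by the square root of F. DESeq2 1.42.0, which the study's methods name, was an alternative. Other alternatives were the 4 libraries numbered 2 and 3, each library left out, a replicate block, RLE scaling, no filter or at least 10 counts in every library, no fold change threshold, and the cell division mean as a covariate. The edgeR step was tested on simulated data. No library was a copy of another (smallest chi-square per gene 4.97, Ctl MSC 2 against 3). The next closest pair, MSC-TPr 2 against 3, was at 52.6. The p-values over 4 libraries thus rest in part on the small spread between Ctl MSC 2 and 3. The common dispersion, edgeR's shared measure of spread, was 0.0168 over 4 libraries and 0.124 over 6. Coordinates and exon lengths come from GENCODE vM21 (GRCm38, that is mm10), to which 21739 symbols matched directly, 1259 by an older symbol and 422 not. Promoter sequences come from RefSeq (GRCm38.p6). CPM of 3 reads covers counting error only.

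The members and lists were chosen with earlier results of these data known. Named in the text are all members, Tead2, Tead3, Lats1, Stk3, Stk4, Vgll3, Vgll4, the transduced genes, and from each list and the Yap1 neighbours the genes called over 6 libraries and up to 4 in each direction ranked by log2 fold change, and for 4 members the 3 genes most like each. Other names are marked where they occur or belong to a count. Some listed genes are counted but not reported by name here.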

Additional observations from a re-analysis of the deposited data

How the results depend on the processing

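Counts of called genes depended mainly on the libraries used. Of the 10 members 0 were called over 6 libraries, 4 over libraries 2 and 3 of each group, 1 with DESeq2 and 1 with the cell division covariate. In the same order the counts were 0, 11, 1 and 5 of the regulators, 1, 19, 2 and 6 of the further targets, 2, 8, 6 and 8 of the Yap1 neighbours, and 51, 4854, 683 and 1434 of all genes. With at least 10 counts in every library, 0 further targets and 31 of all genes were called. Leaving out 1 library gave 0 to 1 further targets, 0 to 4 neighbours and 0 to 108 of all genes, and 0 members and regulators throughout. The neighbours were at 4 without Ctl MSC 1 and at 0 without Ctl MSC 2, Ctl MSC 3, MSC-TPr 2 or MSC-TPr 3, and these libraries moved the count of all genes in the same way. The cause was not tested.

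With a replicate block, edgeR called 0 of the further targets, 0 of the neighbours and 0 of all genes, while 776 of all genes had an unadjusted p under 0.05. The numbers did not pair the libraries: deviations of same-numbered libraries correlated at −0.765, −0.594 and −0.604. RLE scaling, no filter and no fold change threshold left the counts of members (0), regulators (0) and further targets (1) as they were.

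Of 130 alternative values for the members' log2 fold changes, 113 kept their direction and their side of the threshold, 6 passed it, 0 lost it and 11 changed sign. Over libraries 2 and 3 of each group, Wwtr1 was −0.45, Tead4 0.16 and Ankrd1 0.03, and with the covariate Tead1 was 0.13. Leaving out 1 library turned Wwtr1 to −0.20 (without Ctl MSC 1) and −0.13 (without MSC-TPr 1), Tead1 to 0.04 and 0.07 (without Ctl MSC 2 and MSC-TPr 2), Tead4 to 0.07 (without Ctl MSC 1), and Cyr61 and Ankrd1 to 0.10 and 0.16 (without MSC-TPr 1). The other ends of these ranges were 0.31 for Wwtr1, −0.37 for Tead1, −0.35 for Tead4, −0.45 for Cyr61 and −0.50 for Ankrd1. Ctgf ranged from 1.56 to 3.07 (without Ctl MSC 1) and Amotl2 from −1.0 to −0.74 when 1 library was left out, with adjusted p from 0.166 to 0.839 and from 0.0881 to 0.548.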
